A study of Homo sapiens with 4 samples.

Results

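The genes of fatty acid synthesis and desaturation were followed in MDA-MB-231, a human triple-negative breast cancer line, through the comparison of Rib_CA with DMSO. The 10 members were chosen by symbol: SREBF1, ACLY, ACACA, FASN, SCD, ELOVL5, ELOVL6, FADS1, FADS2 and ACSL3. Each matched 1 Ensembl gene ID in the deposited table of 20263 genes, and all 10 passed the filter on low counts. Cells received Rib_CA, a derivative of ribociclib according to the series title, or DMSO, the solvent control, for 24 h, and mRNA was sequenced from 2 libraries of each group. Both groups shared the line and the culture medium with serum. The labels give no dose of Rib_CA. They do not tell how the replicates were grown, so every p-value rests on the scatter between libraries that may differ only technically.

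Cells make fatty acids from citrate. ATP-citrate lyase (ACLY) splits citrate into acetyl-CoA, acetyl-CoA carboxylase (ACACA) turns this into malonyl-CoA in the committed step, and fatty acid synthase (FASN) builds palmitate from both. Stearoyl-CoA desaturase (SCD) introduces the first double bond, elongases of the ELOVL family lengthen the chain, the desaturases of FADS1 and FADS2 act on polyunsaturated chains, and acyl-CoA synthetases such as ACSL3 activate free fatty acids. The transcription factor SREBP-1, made from SREBF1, activates most of these genes when it is released from the endoplasmic reticulum membrane, and tumour cells often keep this programme high.

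None of these 10 genes was called changed in Rib_CA by edgeR, which called 7.13% of all genes tested. FASN, SCD and ELOVL5 had fitted log2 fold changes of -0.011, 0.074 and 0.019, with 95% intervals wide enough to hold, for FASN, any ratio between 0.478 and 2.06. ACACA, the gene of the committed step, had the largest difference and lay 2.21-fold lower in Rib_CA, and ACSL3 lay 1.80-fold lower. Neither reached the threshold in edgeR's quasi-likelihood test, with adjusted p of 0.0516 for ACACA and 0.0881 for ACSL3. In these members the libraries of the groups did not overlap, which was so for 58.8% of all genes tested.

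The libraries held 38865103 and 37772266 counts in Rib_CA and 34774542 and 37754168 counts in DMSO. Transcripts of the mitochondrial genome took 5.78% and 3.13% of the counts in the Rib_CA libraries and 8.68% and 21.7% in the DMSO libraries. The levels given below are CPM, counts per 1000000 counts of a library after TMM scaling. VIM, a mesenchymal gene that marks this line, averaged 3764 ± 16.0 CPM in Rib_CA and 3904 ± 449 CPM in DMSO (SD, n = 2 each), and 5 of the 6 markers of the line lay above 200 CPM in every library, while the other, SPARC, averaged 0.445 CPM in Rib_CA and 0.789 CPM in DMSO. The receptor genes ESR1 and PGR and the cadherin gene CDH1 stayed below 2 CPM in each library. The other 4 of 7 luminal and receptor markers were detected: ERBB2 averaged 72.6 CPM in Rib_CA and 71.5 CPM in DMSO, while EPCAM, GATA3 and FOXA1 averaged between 2.26 and 11.04 CPM in Rib_CA and between 7.32 and 15.7 CPM in DMSO.

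Sequences before the transcription starts are shown for 3 members. SCD is the most abundant, and ACACA and ACLY were the members with a window free of annotated UTR. The sequences come from the 250 bases before a RefSeq start in GRCh38.p14, written 5′ to 3′ on the strand of the gene. The stretch for SCD ends after 144 bases, at the end of its last motif match. GENCODE 29 places a UTR in the rest, and 3 of the bases shown lie in that UTR. Capitals mark matches, on either strand, to CCAAT, the box bound by NF-Y, to CACGTG, an E-box, and to CACNCCAC, which resembles the core of a sterol regulatory element. The motifs were chosen after a first look at the windows and do not overlap in these stretches.
SCD, chr10:100346983-100347126, plus strand: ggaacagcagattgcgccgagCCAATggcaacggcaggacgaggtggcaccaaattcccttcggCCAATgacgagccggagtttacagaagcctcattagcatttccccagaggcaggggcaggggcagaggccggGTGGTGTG
ACACA, chr17:37299768-37300017, minus strand, 1 of 3 starts: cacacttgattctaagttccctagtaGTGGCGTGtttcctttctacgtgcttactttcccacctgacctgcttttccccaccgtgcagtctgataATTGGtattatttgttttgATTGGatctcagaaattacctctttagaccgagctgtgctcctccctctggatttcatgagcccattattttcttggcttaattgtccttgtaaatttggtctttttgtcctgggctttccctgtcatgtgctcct
ACLY, chr17:41919023-41919272, minus strand, 1 of 2 starts: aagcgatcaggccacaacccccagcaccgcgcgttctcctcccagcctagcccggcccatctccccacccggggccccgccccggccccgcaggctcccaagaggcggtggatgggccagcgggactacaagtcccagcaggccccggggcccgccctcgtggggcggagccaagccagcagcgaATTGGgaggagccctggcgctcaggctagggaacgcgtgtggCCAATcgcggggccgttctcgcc

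The SCD stretch held CCAAT 229 to 225 and 186 to 182 bases before the start and CACNCCAC 114 to 107 bases before it. The ACACA stretch held CACNCCAC 224 to 217 bases before its start and 2 CCAAT matches, and the ACLY stretch held 2 CCAAT matches. The ACACA and ACLY stretches each lie inside the annotated gene, and the other ACACA windows held no CACNCCAC match. Of the 9 members with a window in the RefSeq table, 5 had a CCAAT match in at least 1 window, 2 a CACNCCAC match and 1, ELOVL5, a CACGTG match. Counted by window, 7 of 13 held CCAAT, 2 CACNCCAC and 1 CACGTG. The 2 ACLY windows overlap and hold the same CCAAT sites, so these sites count in both. Over all 35116 windows of this length, 32% held CCAAT, 4.87% CACNCCAC and 6.34% CACGTG. These matches describe letters and not bound sites.

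SREBF1, which encodes SREBP-1 (chr17:17810399-17837002, GENCODE 29 on GRCh38), had 153 and 92.3 CPM in Rib_CA, against 81.1 and 103 CPM in DMSO. Rib_CA 1 stood above the other 3 libraries and the groups overlapped. The fitted log2 fold change was 0.42 ± 0.32 (SE; 95% interval -0.36 to 1.19), with an adjusted p of 0.440 in edgeR. Without Rib_CA 1 the log2 fold change was -0.042, so its sign rested on that library. SREBF1 shares 6.92% of its exonic bases with RAI1 on the opposite strand.

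ACLY, the source of cytosolic acetyl-CoA (chr17:41866908-41930542), had 717 and 432 CPM in Rib_CA, against 456 and 459 CPM in DMSO. Here too Rib_CA 1 stood apart, while Rib_CA 2 lay just below both DMSO libraries. The log2 fold change was 0.33 ± 0.32 (95% interval -0.44 to 1.10; adjusted p = 0.544 in edgeR), and -0.12 without Rib_CA 1.

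ACACA, which encodes acetyl-CoA carboxylase alpha (chr17:37084988-37406818), had 78.3 and 61.0 CPM in Rib_CA, against 161 and 147 CPM in DMSO. All Rib_CA values lay below all DMSO values, and the gap between groups was wider than the spread within either. In bulk RNA, fewer cells with the transcript and less of it per cell cannot be told apart. The group means were 69.6 ± 12.2 CPM in Rib_CA and 154 ± 9.55 CPM in DMSO (SD, n = 2 each). The log2 fold change was -1.14 ± 0.26 (95% interval -1.77 to -0.51), with an unadjusted p of 0.00382 and an adjusted p of 0.0516 in edgeR. The direction held in every alternative tried, and the value ran from -1.38 to -0.77. ACACA has the longest transcript of the members, at 9961 bases, and -0.77 was its value after correction of each library for GC content and transcript length. It passed the threshold in 6 of 14 alternatives, among them DESeq2 (adjusted p = 0.00388), and had an adjusted p of 0.297 without DMSO 1 and 0.215 without DMSO 2.

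FASN, the multifunctional enzyme that makes palmitate (chr17:82078333-82098332), had 1169 and 498 CPM in Rib_CA, against 711 and 969 CPM in DMSO. The Rib_CA libraries differed 2.35-fold from each other and bracketed both DMSO libraries. The means were 834 ± 474 CPM in Rib_CA and 840 ± 182 CPM in DMSO, and the log2 fold change was -0.011 ± 0.44 (95% interval -1.06 to 1.04; adjusted p = 0.992 in edgeR). Leaving out 1 library moved the value between -0.80 (without Rib_CA 1) and 0.47 (without Rib_CA 2), and after the GC correction it was -0.60. ACACA and FASN act in consecutive steps of the pathway. Per length of transcript the FASN level was 17.4 and 9.51 times that of ACACA in Rib_CA, against 5.15 and 7.66 times in DMSO. Of 4 such ratios computed between members, this was the one without overlap between the groups. The gap between the groups was smaller than the spread within either. After correction for GC content and length, the log2 fold change was -0.77 for ACACA and -0.19 for FASN. No p is given for the ratio, because the smallest that exact permutation of 2 against 2 libraries allows is 0.333 (two-sided).

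**Figure D1:**
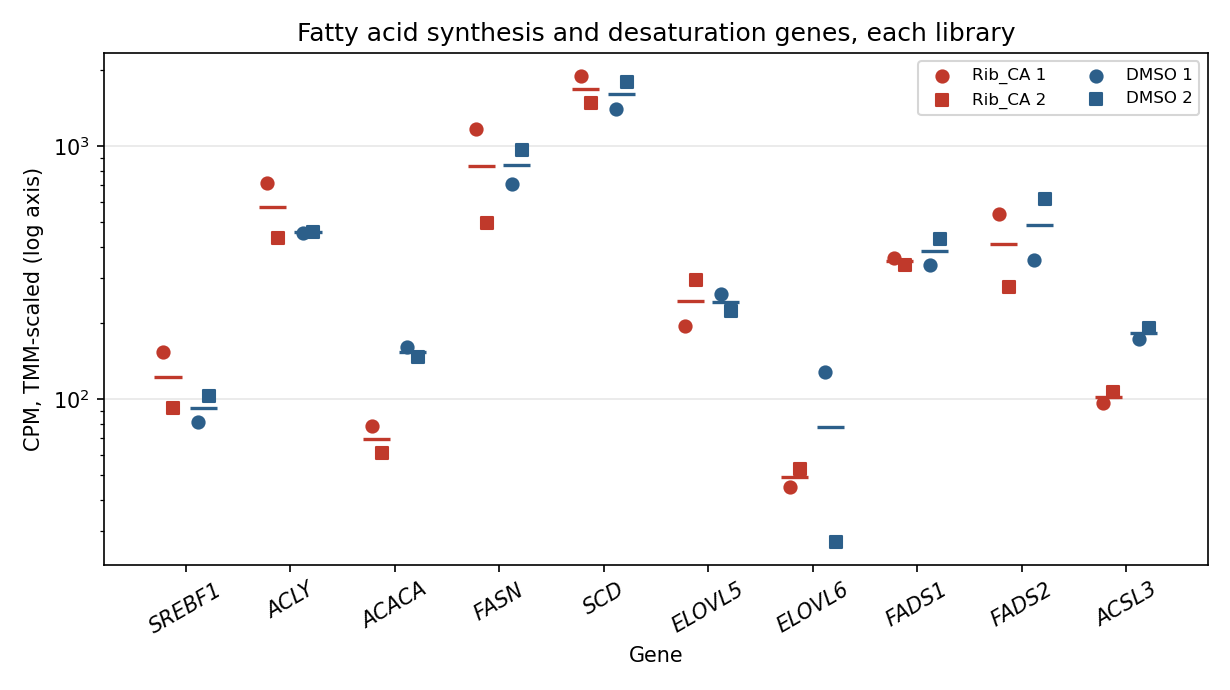
CPM (TMM-scaled, log axis) of the 10 genes in each library, with Rib_CA in red and DMSO in blue, circles for replicate 1, squares for replicate 2 and bars for the group means. The Rib_CA points of ACACA (78.3 and 61.0 CPM) and ACSL3 (96.8 and 107 CPM) lie below all their DMSO points, and in the other 8 genes the groups overlap.

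SCD, the delta-9 desaturase that makes oleate (chr10:100347124-100364834; sequence shown above), had 1892 and 1484 CPM in Rib_CA, against 1409 and 1798 CPM in DMSO. It was the most abundant member in every library, and the libraries of the groups interleaved. The log2 fold change was 0.074 ± 0.32 (95% interval -0.69 to 0.84; adjusted p = 0.909 in edgeR).

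FADS1, the delta-5 desaturase (chr11:61799625-61829318), had 362 and 341 CPM in Rib_CA, against 338 and 430 CPM in DMSO. Both Rib_CA values lay between the DMSO values, and the log2 fold change was -0.13 ± 0.27 (95% interval -0.77 to 0.51; adjusted p = 0.795 in edgeR). FADS2, the delta-6 desaturase (chr11:61792980-61867354), had 541 and 278 CPM in Rib_CA, against 354 and 619 CPM in DMSO. Its libraries differed 1.94-fold within Rib_CA and 1.75-fold within DMSO, more than the 1.19-fold lower mean of Rib_CA (log2 fold change -0.25 ± 0.42; adjusted p = 0.745 in edgeR), and its value without Rib_CA 1 was -0.86. FADS1 and FADS2 lie on opposite strands and share 490 exonic bases, which is 4.79% of those of FADS1, so reads there are separable only where counting used strand.

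ELOVL5, which elongates polyunsaturated chains (chr6:53267398-53349179), had 195 and 295 CPM in Rib_CA, against 260 and 223 CPM in DMSO. The DMSO values fell between those of Rib_CA, and the log2 fold change was 0.019 ± 0.30 (95% interval -0.70 to 0.74; unadjusted p = 0.951 in edgeR). ELOVL6, which elongates palmitate to stearate (chr4:110045846-110199199), had 45.0 and 52.9 CPM in Rib_CA, against 128 and 27.2 CPM in DMSO. The Rib_CA libraries were close together, whereas DMSO 1 held 4.69 times as much as DMSO 2, the widest spread between 2 libraries of a group among the members. Its log2 fold change of -0.66 ± 0.64 had a 95% interval of -2.18 to 0.86, and went to 0.84 without DMSO 1, to -1.38 without DMSO 2 and to 0.060 after correction for GC content and length.

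ACSL3, an acyl-CoA synthetase of the endoplasmic reticulum and lipid droplets (chr2:222860934-222944639), had 96.8 and 107 CPM in Rib_CA, against 174 and 192 CPM in DMSO. The replicates differed by 1.10-fold within each group, and all Rib_CA values lay below all DMSO values. The log2 fold change was -0.85 ± 0.25 (95% interval -1.44 to -0.25; unadjusted p = 0.0125; adjusted p = 0.0881 in edgeR). ACSL3 has the lowest GC content of the members, 38.1%, and after correction for GC content alone its log2 fold change was -0.21. ACSL3 passed in 2 of 14 alternatives, DESeq2 (adjusted p = 0.0301) and the fit without Rib_CA 2. In edgeR its adjusted p was 0.207 with the replicate number as a block and 0.631 after the GC correction. The log2 fold change was -0.92 without DMSO 1 and -0.77 without DMSO 2.

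**Figure D2:**
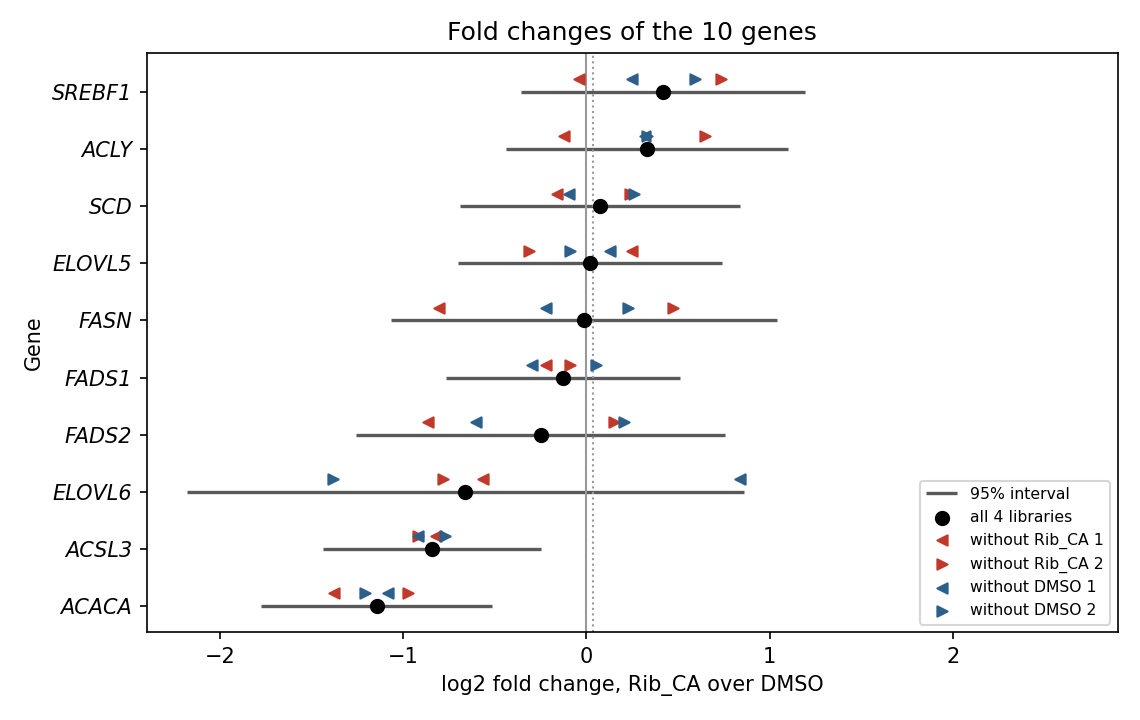
Log2 fold change of Rib_CA over DMSO for the 10 genes (black, with 95% intervals), and the value with 1 library left out (triangles, red for a Rib_CA and blue for a DMSO library). The solid vertical line is 0 and the dotted line the median of all genes tested, 0.034. The intervals of ACACA and ACSL3 lie below 0 before any adjustment for the number of genes, and all triangles of these genes stay below 0.

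Counted together, edgeR called 0 of 10 members higher and 0 of 10 lower (adjusted p under 0.05), while 974 of 13667 genes (7.13%) passed, 2.01% higher and 5.11% lower. At an unadjusted p under 0.05 there were 2 of 10, ACACA and ACSL3, against 28.4% of all genes. DESeq2 called these 2 genes lower, where it called 17.9% of all genes, 7.25% higher and 10.7% lower. Limma-voom called none of the 10 and 6.45% of all genes. The libraries of the groups lay apart for 2 of 10 members, against 58.8% of all genes. None of the members had both Rib_CA libraries above both DMSO libraries, which was so for 30.4% of all genes, and 2 had both below, which was so for 28.4%. The median log2 fold change of the members was -0.070, beside 0.034 for all genes. Their median absolute log2 fold change was 0.29, beside 0.54 for all genes. With 10 members these shares are a description, and the difference from all genes was not tested.

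The order of the libraries within a group was shared by many members. SREBF1, ACLY, FASN, SCD, FADS1 and FADS2 were higher in Rib_CA 1 than in Rib_CA 2 and higher in DMSO 2 than in DMSO 1. This order was found in 6 of 10 members and in 25.9% of all genes tested. ELOVL5 and ELOVL6 had the opposite order in both groups, as did 35.8% of all genes. Among 22 genes of cholesterol synthesis and uptake, which the related factor SREBP-2 controls, 13 had the order of FASN. INSIG1, a sterol-sensitive gene whose product holds SREBPs in the endoplasmic reticulum, had 202 and 105 CPM in Rib_CA, against 127 and 245 CPM in DMSO. For INSIG1, as for FASN, the difference between replicates was larger than that between group means. The share of mitochondrial counts moved with this order: in DMSO the library with more FASN and FADS2 was also the one with 21.7% of counts from the mitochondrial genome, while in Rib_CA it was the one with 5.78%, also the higher share of its group. Its part in the order was not tested.

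**Figure D3:**
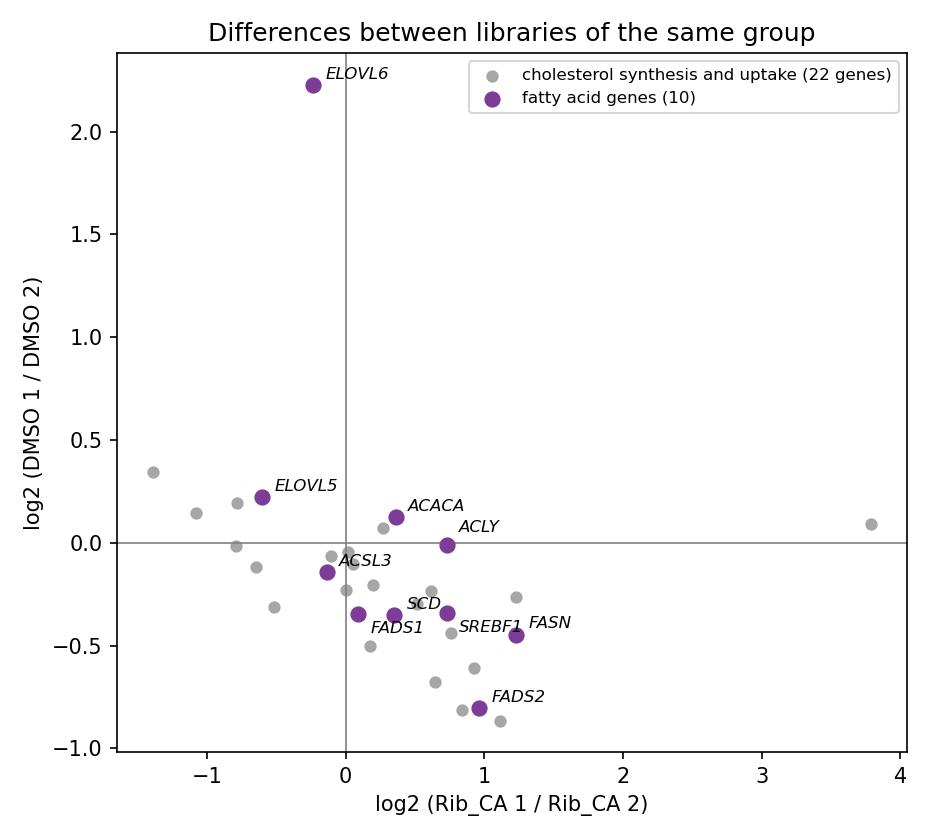
Log2 ratio of replicate 1 to replicate 2 within Rib_CA (horizontal axis) and within DMSO (vertical axis), for the 10 fatty acid genes (purple) and 22 cholesterol genes (grey). The corner at the lower right holds SREBF1, ACLY, FASN, SCD, FADS1 and FADS2, and ELOVL6 stands apart at the top with a 4.69-fold difference between the DMSO libraries.

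Levels of different genes were compared per kilobase of the longest transcript. On that scale SCD led with 315 ± 53.7 CPM per kilobase in Rib_CA and 299 ± 51.3 in DMSO (SD, n = 2 each). It was followed by ACLY (132 in Rib_CA and 105 in DMSO) and FASN (97.3 and 98.1), then by FADS2, ELOVL5 and FADS1, between 77.6 and 80.7 in Rib_CA and between 78.5 and 95.9 in DMSO. In Rib_CA the libraries of these 5 genes overlapped from each neighbour to the next, so the order among them is not resolved. SREBF1 came next with 26.4 ± 9.24 in Rib_CA and 19.8 ± 3.30 in DMSO. ACSL3 lay at 17.9 ± 1.21 in Rib_CA, below SREBF1 there, and at 32.2 ± 2.24 in DMSO, above SREBF1. The lowest were ELOVL6, at 7.59 ± 0.87 in Rib_CA and 12.0 in DMSO (19.8 and 4.22 in its libraries), and ACACA, at 6.99 ± 1.23 in Rib_CA and 15.4 ± 0.96 in DMSO, whose libraries overlapped with those of ELOVL6 in both groups. All 10 genes together made up 4445 ± 1136 CPM in Rib_CA and 4519 ± 633 CPM in DMSO.

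The genes around the pathway were read from lists. Over all genes, edgeR called 2.01% higher and 5.11% lower, and 28.4% had an unadjusted p under 0.05 in it. DESeq2 called 7.25% higher and 10.7% lower. None of 13 genes listed around SREBP passed in edgeR, where 1 had an unadjusted p under 0.05 and DESeq2 called 1 higher. The list also holds MLXIPL and MLX, which belong to another transcription factor and not to the control of SREBP. Of the 11 lists, 9 had no call in edgeR, and limma-voom made none in these either. The SREBP list's median log2 fold change was 0.44. SREBF2, which encodes SREBP-2, had 422 and 301 CPM in Rib_CA, against 228 and 271 CPM in DMSO (log2 fold change 0.54 ± 0.29; adjusted p = 0.273 in edgeR). SCAP, the escort of SREBPs, had a log2 fold change of 0.025 ± 0.25, and INSIG1 one of -0.27 ± 0.44 (-0.88 without Rib_CA 1). INSIG2 had one of 0.89 ± 0.79 and lay at 6.74 and 48.9 CPM in Rib_CA, against 17.4 and 12.7 CPM in DMSO, so that its mean rested on Rib_CA 2. Its log2 fold change was 1.67 without Rib_CA 1, -1.16 without Rib_CA 2 and 0.30 with the replicate number as a block. NR1H2, which encodes the sterol receptor LXR beta, lay 2.29-fold higher in Rib_CA (119 ± 21.8 CPM, against 51.9 ± 11.6 CPM in DMSO) with an adjusted p of 0.0588 in edgeR. The log2 fold change of NR1H2 was 1.20, against 0.65 after correction for GC content and length.

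None of the 8 genes of carbon and NADPH supply passed in edgeR, beside 7.13% of all genes. At an unadjusted p under 0.05 there were 2, both of which DESeq2 called higher. The mitochondrial citrate carrier gene SLC25A1 had 135 and 101 CPM in Rib_CA, against 56.4 and 60.2 CPM in DMSO (2.02-fold; adjusted p = 0.0704 in edgeR), and ACSS2, which makes acetyl-CoA from acetate, lay 1.91-fold higher (adjusted p = 0.0803). The value of SLC25A1 was 0.28 on the log2 scale after correction for GC content and length, against 1.02 without it. Of 11 tested partners of acetyl-CoA carboxylase none passed, 3 had an unadjusted p under 0.05, and DESeq2 called 1 higher and 1 lower. MID1IP1, whose product promotes polymerisation of the carboxylase, had 72.3 and 68.7 CPM in Rib_CA, against 31.5 and 39.0 CPM in DMSO (adjusted p = 0.0709). PRKAA1, the catalytic subunit of the kinase AMPK, which inhibits the carboxylase, lay 1.78-fold lower (adjusted p = 0.0916), and its log2 fold change was -0.83, against -0.18 after the GC correction. ACACB, the mitochondrial form of the carboxylase, averaged 10.7 ± 5.65 CPM in Rib_CA and 20.4 ± 1.35 CPM in DMSO (log2 fold change -0.93 ± 0.42; adjusted p = 0.203 in edgeR). Its log2 fold change was -1.64 without Rib_CA 1 and -0.47 without Rib_CA 2.

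None of 8 tested genes of the elongation cycle and none of 9 tested partners of the desaturases passed in edgeR. The share over all genes was 7.13%. At an unadjusted p under 0.05 there were 2 in the elongation cycle, where DESeq2 called 1 higher and 1 lower, and 1 among the partners, where DESeq2 called 1 higher. HACD2, a dehydratase of the elongation cycle, lay 2.04-fold lower at 53.5 ± 10.7 CPM in Rib_CA and 109 ± 1.80 CPM in DMSO (adjusted p = 0.0683 in edgeR). The log2 fold change of HACD2 was -1.025, against -0.51 after correction for GC content and length. ELOVL1, the elongase of very long saturated chains, lay 2.11-fold higher (adjusted p = 0.126), with a log2 fold change of 1.08, against 0.49 after correction for GC content and length. CYB5R1, a cytochrome b5 reductase, had 74.7 and 73.1 CPM in Rib_CA, against 36.9 and 38.1 CPM in DMSO (adjusted p = 0.0657). SCD5, the second human stearoyl-CoA desaturase, had a log2 fold change of -0.65 ± 0.28, and FADS3, the third gene of its cluster, one of 0.16 ± 0.27.

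Of 10 tested acyl-CoA synthetases other than ACSL3, none passed in edgeR, beside 7.13% of all genes. Of these 10, 3 had an unadjusted p under 0.05, and DESeq2 called 1 higher. ACSL4, which prefers arachidonate, had 51.9 and 76.3 CPM in Rib_CA, against 128 and 91.0 CPM in DMSO (log2 fold change -0.77 ± 0.32; adjusted p = 0.168 in edgeR), and its log2 fold change after the GC correction was -0.13. ACSL1 had a log2 fold change of -0.10 ± 0.28. The fatty acid transport protein genes SLC27A1 and SLC27A4 lay 2.55-fold and 1.64-fold higher (adjusted p = 0.0660 and 0.155 in edgeR). Their log2 fold changes were 1.35 and 0.71, against 1.07 and 0.25 after correction for GC content and length. In the separate mitochondrial route of fatty acid synthesis, none of 7 passed in edgeR or DESeq2 and 3 had an unadjusted p under 0.05, with a median log2 fold change of 0.65. Its reductase gene MECR lay 1.95-fold higher (adjusted p = 0.103 in edgeR), and HSD17B8 averaged 1.71 ± 0.40 CPM in Rib_CA and 0.387 ± 0.140 CPM in DMSO (adjusted p = 0.0816). After correction for GC content and length, the log2 fold change was 0.58 for MECR, against 0.96, and 1.53 for HSD17B8, against 2.14. None of 16 genes of acyl transfer to glycerolipids passed in edgeR, with 2 at an unadjusted p under 0.05, and DESeq2 called 1 lower. GPAM, the mitochondrial glycerol-3-phosphate acyltransferase, lay 2.42-fold lower (adjusted p = 0.0835), with a log2 fold change of -1.28, against -0.65 after correction for GC content and length. DGAT2, which forms triglyceride, lay 1.86-fold higher (adjusted p = 0.127). None of 4 tested genes of uptake and binding passed in edgeR or DESeq2 and 0 had an unadjusted p under 0.05, among them the carriers FABP5 (log2 fold change -0.61 ± 0.37) and DBI (0.31 ± 0.26). FABP5 was at -1.26 without Rib_CA 1 and at -0.19 without Rib_CA 2, and DBI was at 0.99 after the GC correction.

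In edgeR, called genes were found in 2 lists. In fatty acid oxidation 2 of 21 rose and none fell, beside 2.01% of all genes higher and 5.11% lower. At an unadjusted p under 0.05, 5 of this list were higher and 2 lower, beside 13.7% and 14.7% of all genes. DESeq2 called 4 higher and 2 lower, beside 7.25% and 10.7% of all genes. ACADS, the short-chain acyl-CoA dehydrogenase, had 20.6 and 23.7 CPM in Rib_CA, against 6.66 and 6.83 CPM in DMSO (3.28-fold; log2 fold change 1.72 ± 0.30; adjusted p = 0.0297 in edgeR). ECI1, an isomerase that prepares unsaturated chains for oxidation, had 57.4 and 59.1 CPM in Rib_CA, against 23.6 and 21.1 CPM in DMSO (2.60-fold; adjusted p = 0.0349). CPT1A, the entry gate of fatty acids into mitochondria, had a log2 fold change of 0.10 ± 0.25, and the list's median was 0.27. In cholesterol synthesis and uptake 1 of 22 rose and none fell in edgeR, beside 2.01% of all genes higher and 5.11% lower. At an unadjusted p under 0.05, 8 were higher and none lower, beside 13.7% and 14.7% of all genes. DESeq2 called 3 higher, beside 7.25% of all genes. PMVK, phosphomevalonate kinase, had 56.9 and 47.2 CPM in Rib_CA, against 18.6 and 17.7 CPM in DMSO (2.87-fold; adjusted p = 0.0315). That list's median was 0.37. ACADS, ECI1 and PMVK lost their calls without DMSO 1 or DMSO 2 and after either GC correction. On the log2 scale ACADS was at 1.07, ECI1 at 0.69 and PMVK at 0.83 after correction for GC content and length.

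**Figure D4:**
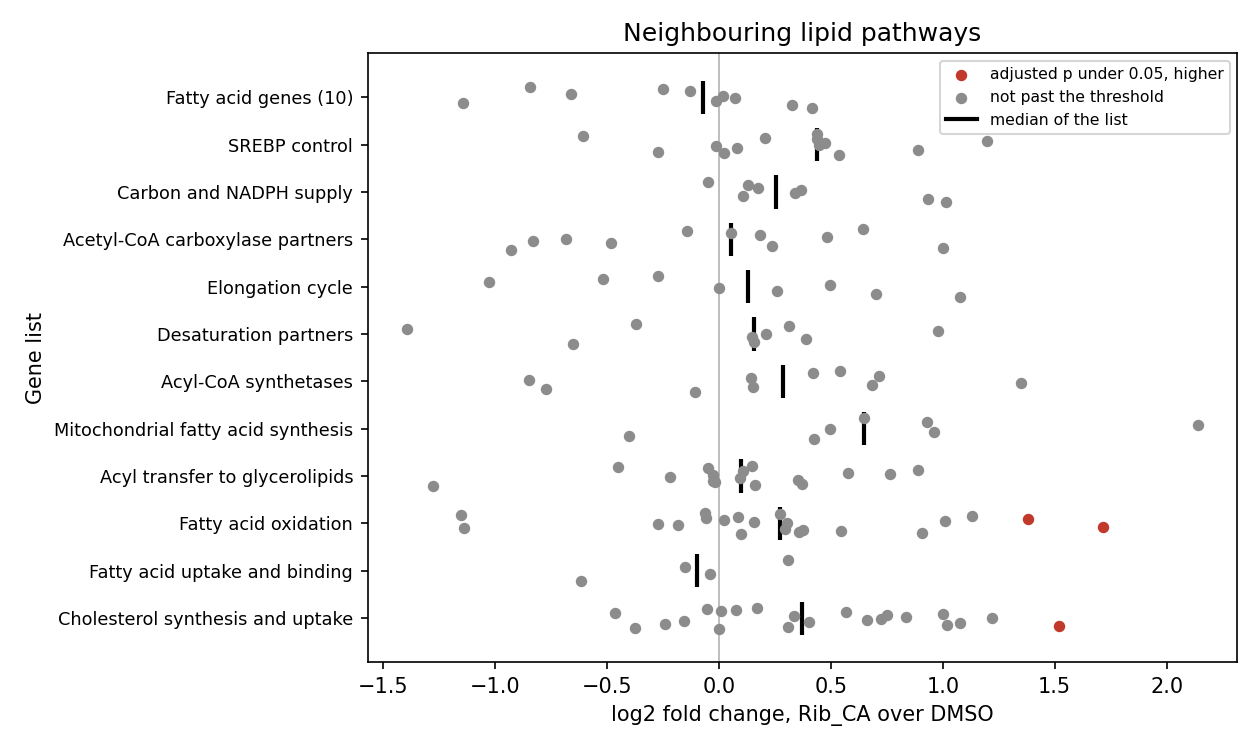
Log2 fold change of Rib_CA over DMSO for each tested gene of the 10 fatty acid genes and of 11 neighbouring lists, with the median of each list as a black bar. Red points are the 3 genes that passed (ACADS, ECI1 and PMVK), and the fatty acid genes centre on -0.070.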

How the data were processed

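The deposited table holds raw counts per gene (whole numbers with unequal totals per library) for 20263 human Ensembl gene IDs in 4 libraries. Libraries were made with a Hieff NGS MaxUp Dual-mode mRNA kit, per the labels' protocols. The submitters' processing notes name the builds GRCm38 and mm10, which are of mouse. No aligner, counting tool, strand setting or human build was named in the sources used here. A gene-name table supplied symbols for 20148 IDs. Positions, exonic overlaps, lengths and GC contents (longest transcript) come from GENCODE 29 on GRCh38, and 20224 IDs were in it. Promoter windows come from RefSeq (GRCh38.p14).

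The filterByExpr function left 13667 genes (at least 10 counts, total of at least 15). They were scaled by TMM and tested for Rib_CA against DMSO with edgeR 4.0.16 in R 4.3.3 (robust quasi-likelihood test, Benjamini-Hochberg adjustment over all genes, threshold 0.05). The standard error is the absolute log2 fold change over the root of F, and 95% intervals use the test's moderated degrees of freedom. Replicates differed far beyond counting noise (chi-square 265 times its degrees of freedom in Rib_CA and 257 times in DMSO). Alternatives used DESeq2 1.42.0, limma 3.58.1 (voom), other scalings and filters, a replicate block, smooths over GC content and length (mgcv 1.9.3), and each library left out, where the lone library of a group is assumed to vary like the other group. The fit was tested on simulated data. The members, lists and alternatives were chosen with earlier results of these data known. Named in the text are the 10 members, 10 related genes whatever their values, and from each list the genes that passed, up to 3 a direction, or else the 2 with the smallest p. Figures were drawn with matplotlib 3.10.9.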

Additional observations from a re-analysis of the deposited data

How the results depend on the processing

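No member was called higher in any alternative, and the number called lower was 0 in the reported fit. It was 1 (ACACA) with DESeq2's size factors, with no filter and with the filter of 5 CPM, 1 with the crossed pairing, 2 with DESeq2, and 0 to 2 with 1 library left out. Leaving out 1 library also moved the genes called over the whole table between 36 and 1234 higher and between 137 and 1634 lower, and the members' median log2 fold change between -0.39 and 0.13. Over all genes, 275 were higher and 699 lower as reported. The counts were 0 and 0 after the GC correction and after the GC and length correction, while 3650 and 3396 genes had unadjusted p-values under 0.05. They were 991 and 1459 with DESeq2, and 260 and 328 with total counts alone, which raised the median of all genes by 0.20. They were 448 higher with no filter and 418 higher with the filter of 5 CPM. The replicate number as a block changed no call among the members (260 higher and 687 lower over all genes). Same-numbered libraries deviated in opposite directions (correlation -0.19 over genes); pairing them crosswise, chosen after seeing the data, gave 724 higher and 1267 lower.

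Some fold changes changed sign: on the log2 scale SREBF1 was at -0.11 after the GC correction, FASN at 0.17 with total counts alone and 0.012 without mitochondrial genes, FADS1 at 0.080 with total counts alone, ELOVL6 at 0.060 after the GC and length correction, and ELOVL5 at -0.0027 with DESeq2's size factors, -0.0076 with the replicate block, -0.0014 with DESeq2 and -0.0082 with limma-voom. After the GC correction and the GC and length correction, SCAP was at -0.47 and -0.33, FADS3 at -0.19 and -0.034 and ACSL1 at 0.14 and 0.14, and CPT1A was at -0.058 after the GC correction alone; ACSL1 was at 0.093 with total counts alone. With 1 library left out, the log2 fold change ran from -0.042 to 0.73 for SREBF1, -0.12 to 0.65 for ACLY, -0.80 to 0.47 for FASN, -0.16 to 0.26 for SCD, -0.32 to 0.25 for ELOVL5, -1.38 to 0.84 for ELOVL6, -0.30 to 0.053 for FADS1 and -0.86 to 0.21 for FADS2. It ran from -0.15 to 0.14 for SCAP, -0.88 to 0.28 for INSIG1, -1.16 to 1.67 for INSIG2, -0.14 to 0.36 for FADS3, -0.22 to 0.011 for ACSL1 and -0.073 to 0.21 for CPT1A. The causes were not tested. ACACA, ACSL3 and the other named genes kept their direction throughout.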
